A study of Homo sapiens with 6 samples.

Results

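The EGR transcription factors EGR1, EGR2, EGR3 and EGR4 and their corepressors NAB1 and NAB2 were followed as 6 of the 20476 genes counted in SW620 cells. SW620 is an established human colorectal cancer line, derived from a lymph node metastasis. The 6 genes were taken by name, as a family and its dedicated corepressors, with earlier results of these libraries known; they were selected on the measured difference between shECM1 and shNC as well, since the lower EGR1 level in the knockdown was among those results. The differences between groups given for these 6 genes are therefore descriptions, with no test, and support nothing further. The shECM1 group had a stably expressed short hairpin RNA that targets ECM1, which encodes a secreted matrix glycoprotein, and the shNC group a negative control hairpin, with 3 libraries each. The study asked how ECM1 bears on expression of the chemokine CCL20. Both groups share the cell line and the stable hairpin vector; whether a group is 1 clone or a pool, and whether replicates are separate cultures, is not given in the sources used here. All p-values thus measure the spread between these libraries, which may be technical. The column names of the deposited table hold a letter and a number, and their match to the 2 groups is an inference from those names: were the letters to mean the reverse, all directions below would turn round.

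EGR proteins bind GC-rich DNA through Cys2-His2 zinc fingers and are made within minutes of a growth factor or stress signal. EGR1 transcription is classically switched on when ERK phosphorylates ternary complex factors such as ELK1, which sit with serum response factor (SRF) on CArG boxes, also called serum response elements. NAB1 and NAB2 bind EGR1, EGR2 and EGR3 and repress their target genes, NAB2 in part by recruiting the CHD4 chromatin remodeller, and NAB2 is itself an EGR target, so that the pair closes a negative feedback loop. EGR4 lacks the NAB-binding domain of its relatives in the usual description of the family. In intestinal epithelium and colorectal cancer cells EGR1 is known as a sensor of growth factor, matrix and injury signals.

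The promoters of these genes are shown because they carry the sites through which the family is known to be switched on and to feed back. Promoter windows from RefSeq (build GRCh38.p14) matched 5 of the 6 genes used here; that of EGR3 was not used. For genes with several annotated starts, the window with the most matches before the start is shown: the third of 3 for EGR2 and the second of 3 for NAB1, counted in the direction of transcription. Each line holds the 250 bases before the annotated start, 5′ to 3′ on the strand of the gene. Capitals mark CArG boxes, the EGR sites GCGGGGGCG and GCGTGGGCG, and the core of the cyclic AMP response element, ACGTCA, each searched on both strands. The windows lie at chr5:138465229-138465478 (plus strand) for EGR1, chr10:62816367-62816616 (minus strand) for EGR2, chr2:73293549-73293798 (minus strand) for EGR4, chr2:190648833-190649082 (plus strand) for NAB1 and chr12:57088864-57089113 (plus strand) for NAB2.
EGR1: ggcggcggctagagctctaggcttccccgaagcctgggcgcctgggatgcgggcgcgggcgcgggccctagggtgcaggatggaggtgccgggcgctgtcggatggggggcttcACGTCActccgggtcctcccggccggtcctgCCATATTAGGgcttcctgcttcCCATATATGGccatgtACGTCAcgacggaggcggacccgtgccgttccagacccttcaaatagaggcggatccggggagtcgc
EGR2: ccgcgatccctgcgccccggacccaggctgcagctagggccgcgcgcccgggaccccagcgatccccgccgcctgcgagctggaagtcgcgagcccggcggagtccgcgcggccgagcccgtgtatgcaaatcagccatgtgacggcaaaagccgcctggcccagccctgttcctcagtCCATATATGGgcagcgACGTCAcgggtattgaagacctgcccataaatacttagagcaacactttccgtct
EGR4: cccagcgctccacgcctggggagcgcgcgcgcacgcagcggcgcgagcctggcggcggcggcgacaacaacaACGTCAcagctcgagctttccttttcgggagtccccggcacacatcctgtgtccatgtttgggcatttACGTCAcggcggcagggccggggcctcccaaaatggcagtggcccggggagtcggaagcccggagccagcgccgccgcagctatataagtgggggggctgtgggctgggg
NAB1: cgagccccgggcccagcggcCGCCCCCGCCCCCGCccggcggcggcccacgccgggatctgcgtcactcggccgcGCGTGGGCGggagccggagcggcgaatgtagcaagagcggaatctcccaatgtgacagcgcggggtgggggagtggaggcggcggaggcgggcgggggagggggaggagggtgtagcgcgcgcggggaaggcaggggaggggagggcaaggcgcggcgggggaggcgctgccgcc
NAB2: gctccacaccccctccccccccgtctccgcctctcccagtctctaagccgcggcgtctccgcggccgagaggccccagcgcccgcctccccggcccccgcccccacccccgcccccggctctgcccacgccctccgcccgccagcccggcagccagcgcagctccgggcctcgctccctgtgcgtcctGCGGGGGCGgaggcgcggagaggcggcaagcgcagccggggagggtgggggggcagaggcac

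The EGR1 window held 2 CArG boxes, which began 105 and 83 bases before the start, and 2 ACGTCA matches, at 136 and 67 bases. The EGR2 window held 1 CArG box 71 bases before the start and 1 ACGTCA match at 55 bases, and the EGR4 window held 2 ACGTCA matches and no CArG box. Neither NAB window shown held a CArG box. The NAB1 window instead held 2 overlapping GCGGGGGCG sites, read on the opposite strand, and 1 GCGTGGGCG site, and the NAB2 window held 1 GCGGGGGCG site 62 bases before the start. Among all 35116 windows of 300 bases (250 before and 50 after a start), 1.29% held a CArG box, 5.77% an EGR site of either form and 7.98% ACGTCA. These shares are per window, whereas the EGR2 and NAB1 windows shown were picked from 3 by their matches, so they are not a like comparison. The first and second EGR2 windows held no match. The first NAB1 window, which overlaps the second, held the same EGR sites, and the third held no EGR site and 1 ACGTCA match. A match describes these letters and says nothing of whether a factor was bound in SW620.

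Library totals ran from 9881720 to 16813951 counts in shECM1 and from 11792872 to 14781799 in shNC. ECM1, the targeted gene, was at 14.8, 13.6 and 8.41 CPM (read counts scaled to a common library total, with TMM scaling factors) in shECM1 and at 38.8, 19.0 and 52.3 CPM in shNC replicates 1, 2 and 3, so the groups did not overlap and shNC replicate 2 lay nearest to the knockdown. That control library stood apart for many genes: edgeR called 0 of 12576 genes with it and 3037 of 12730 without it. The mean chi-square per gene between its counts and those of controls 1 and 3 was 15.6 and 32.5, against 7.66 between these. In the knockdown group shECM1 replicate 3 stood apart too, at 14.5 and 14.8 from replicates 1 and 2, against 3.30 between these. Calls without shNC replicate 2 are given for the members, for the flanking genes, for each pathway list and for markers of colon epithelium and of other cell types. The epithelial genes EPCAM, KRT8, KRT18 and VIL1 were abundant in both groups (KRT8 at 6183 CPM on average in shECM1 and 7440 in shNC), whereas KRT20 was at 1.13 and 1.40 CPM in shECM1 and shNC and LGALS4 at 0.862 and 0.790. CDX1 had 0 reads in shECM1 and at 0.0239 CPM in shNC, so these 3 of the 10 colon epithelial markers were near 0. CDX2 was at 18.1 CPM on average in shECM1 and 14.6 in shNC, CDH17 at 5.66 and 7.56, and CEACAM5 at 16.4 and 29.5, of which DESeq2 called CEACAM5 lower (adjusted p = 0.00848). Without shNC replicate 2, edgeR called KRT8, KRT18 and CEACAM5 lower (adjusted p = 0.0198, 0.00798 and 0.000666). These were 3 of the 9 tested colon epithelial markers, with 0 higher, where 14.1% and 9.73% of all genes were called.

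EGR1 carried nearly all reads of the family. EGR1 (ENSG00000120738, GRCh38 chromosome 5, 138465490 to 138469315, plus strand) stood at 113.9, 122.0 and 110.5 CPM in shECM1, against 212.5, 162.2 and 246.6 CPM in shNC, from 1147 to 2048 reads per shECM1 library and 2258 to 3445 per shNC library. Every shECM1 library lay below every shNC library, the shECM1 values were close together, and shNC replicate 2 was the lowest control. The mean was 115.5 ± 5.93 CPM in shECM1 and 207.1 ± 42.5 CPM in shNC (SD, n = 3 each). The fitted level was 44.2% lower in shECM1, a log2 fold change (shECM1 minus shNC) of -0.84 ± 0.14 (SE, edgeR). With that library left out, edgeR gave -0.98 ± 0.10 (SE).

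EGR3 and EGR2 were expressed far below EGR1. EGR3, which is induced by many of the same signals and in mice acts with Egr2 in T cell tolerance (ENSG00000179388, chromosome 8, 22687659 to 22693302, minus strand), was at 5.56, 6.02 and 6.51 CPM in shECM1, against 13.4, 6.46 and 15.7 CPM in shNC. Control replicates 1 and 3 lay above all knockdown libraries, but shNC replicate 2, from 90 reads, fell inside the shECM1 range, so the groups overlapped by that 1 library. The log2 fold change of EGR3 was -0.97 ± 0.28 (SE) with all libraries and -1.25 ± 0.18 without shNC replicate 2. It averaged 6.03 ± 0.476 CPM in shECM1 and 11.8 ± 4.79 CPM in shNC (SD, n = 3 each).

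EGR2, known for its role in myelination and hindbrain patterning (ENSG00000122877, chromosome 10, 62811996 to 62919900, minus strand), was at 3.18, 3.10 and 2.49 CPM in shECM1 and 5.67, 3.88 and 4.80 CPM in shNC. The groups did not overlap, with the lowest control again replicate 2, although the values rested on 32 to 52 reads per shECM1 library and 54 to 67 per shNC library. The log2 fold change was -0.71 ± 0.24 (SE), on means of 2.92 ± 0.377 CPM in shECM1 and 4.78 ± 0.895 CPM in shNC (SD, n = 3 each).

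EGR4, a family member best known from neurons (ENSG00000135625, chromosome 2, 73290929 to 73293705, minus strand), was close to the limit of detection and did not pass the count filter. It had 3, 4 and 4 reads in shECM1 and 3, 4 and 12 reads in shNC. Its higher mean in shNC came from replicate 3, while the other controls lay among the knockdown libraries. Summed over a group, 11 reads in shECM1 gave 0.271 CPM (exact 95% Poisson interval 0.135 to 0.486) and 19 reads in shNC gave 0.478 CPM (0.288 to 0.747). The ratio was 0.567 with an exact 95% interval of 0.244 to 1.25, which covers counting error only, so a difference was not detectable at this depth.

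The corepressors were expressed at levels between EGR1 and the minor EGR genes and differed less between the groups. NAB1 (ENSG00000138386, chromosome 2, 190646746 to 190692766, plus strand) was at 79.9, 82.1 and 65.3 CPM in shECM1, against 96.3, 84.3 and 103.1 CPM in shNC. The groups did not overlap, but the gap between shNC replicate 2 and the highest shECM1 library was small beside the spread within each group. The log2 fold change was -0.32 ± 0.12 (SE), with means of 75.8 ± 9.11 CPM in shECM1 and 94.6 ± 9.53 CPM in shNC (SD, n = 3 each).

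NAB2 (ENSG00000166886, chromosome 12, 57088894 to 57095476, plus strand) was at 19.0, 21.4 and 24.3 CPM in shECM1, against 26.2, 21.5 and 25.6 CPM in shNC. The groups overlapped, with shECM1 replicate 3 higher than shNC replicate 2. edgeR gave a log2 fold change of -0.18 ± 0.14 (SE), with means of 21.5 ± 2.67 CPM in shECM1 and 24.4 ± 2.53 CPM in shNC (SD, n = 3 each). The end of NAB2 overlaps STAT6, a cytokine-activated transcription factor on the opposite strand, by 69 exonic bases. Whether counting used strand is not given, so reads in that stretch cannot be assigned to 1 of the genes. STAT6 itself was at 130.1 ± 12.1 CPM in shECM1 and 137.0 ± 2.93 CPM in shNC (SD, n = 3 each), with a log2 fold change of -0.07 ± 0.10 (SE). EGR3 and NAB1 also overlap unnamed antisense transcripts, by 164 exonic bases for EGR3 and by 186 and 10 for NAB1; these were not rows of the count table.

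**Figure D1:**
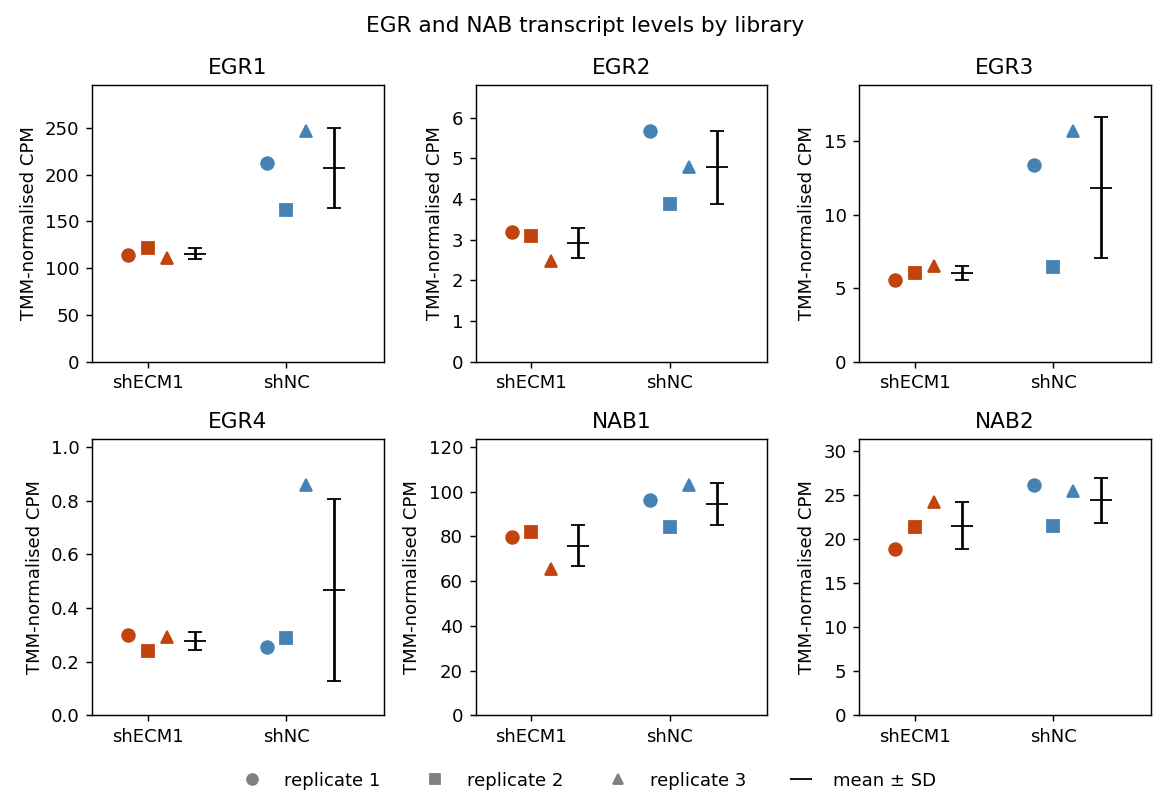
TMM-normalised CPM of each EGR and NAB gene (linear axes from 0) in the 3 shECM1 libraries and, to their right, the 3 shNC libraries, with symbols for replicates and bars for the mean ± SD. EGR1, EGR2 and NAB1 separate fully, and for EGR1, EGR2, EGR3, NAB1 and NAB2 shNC replicate 2 is the lowest control.

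Of the 6 genes 5 passed the count filter, and all 5 had a negative log2 fold change, where 48.6% of the 12576 genes tested did. In 3 of the 5 (EGR1, EGR2 and NAB1) every shECM1 library lay below every shNC library, against 13.2% of all genes tested. At a Benjamini-Hochberg adjusted p under 0.05 over all genes, edgeR's quasi-likelihood test called 0 of the 5, as it called 0% of all genes. At an unadjusted p under 0.05 it gave 2827 genes, or 22.5% of those tested, with 14.2% lower and 8.31% higher. Of these genes 4 were members, all lower. limma-voom also called 0 genes, with 2776 at an unadjusted p under 0.05. DESeq2 called EGR1 and EGR3 lower, beside 5.13% of the 11620 genes to which it gave an adjusted p, and edgeR with no count filter called the same 2 genes, beside 2.83% of 16386. Without shNC replicate 2, edgeR called EGR1, EGR2, EGR3 and NAB1 lower, beside 14.1% of 12730 genes, and DESeq2 without it called EGR1, EGR3 and NAB1 lower, beside 12.5% of 12775 (8.45% were called higher). Because the choice of members used this contrast, nothing is read from these counts. Each value is a sum over many cells, so fewer cells making a transcript and less transcript per cell cannot be told apart.

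**Figure D2:**
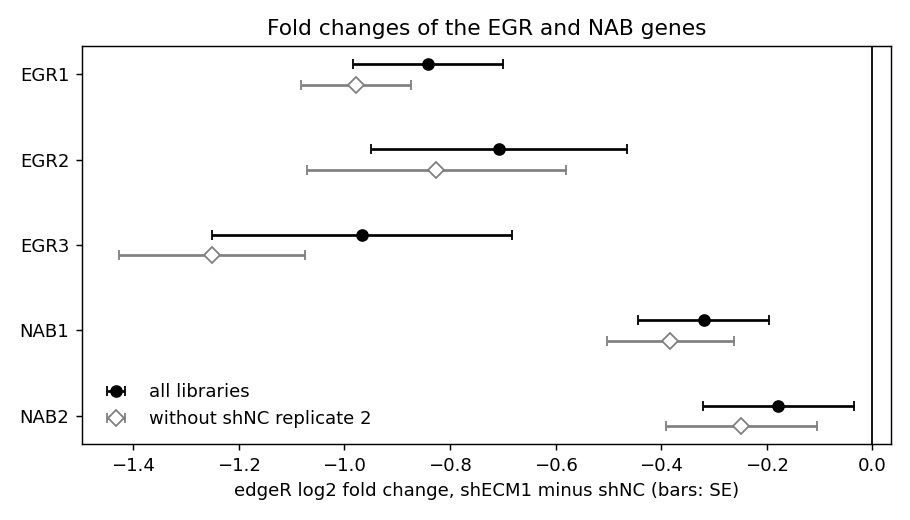
edgeR log2 fold change (shECM1 minus shNC) with its SE for the 5 members that passed the count filter, with all libraries (filled circles) and without shNC replicate 2 (open diamonds). All values lie below 0, from -0.97 for EGR3 to -0.18 for NAB2 with all libraries, and each lies further from 0 without that control library. It is the lowest control for each of the 5 genes, so leaving it out raises the control mean and this shift was fixed in advance.

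Per kilobase of annotated exon, the order of levels was EGR1, NAB1, NAB2, EGR3, EGR2 and EGR4 in all 6 libraries. EGR1 was at 36.8 ± 1.89 CPM per kilobase in shECM1 and 66.0 ± 13.5 in shNC (SD, n = 3 each). NAB1 was at 15.5 ± 1.86 and NAB2 at 7.16 ± 0.887 CPM per kilobase in shECM1, against 19.4 ± 1.95 and 8.12 ± 0.840 in shNC (SD, n = 3 each). EGR3, at 1.15 to 1.34 CPM per kilobase in shECM1 and 1.33 to 3.23 in shNC, and EGR2, at 0.674 to 0.861 and 1.05 to 1.54, were neighbours whose ranges overlapped within shNC. The ranges of EGR1, NAB1 and NAB2 did not overlap one another. The labels' protocols name a 3′ single-cell kit beside total RNA extraction, and if reads came from 3′ ends alone, scaling by exon length would not be apt.

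Within a library, ratios of read counts do not depend on how libraries were scaled. Of all EGR family reads, EGR1 supplied 92.6%, 92.9% and 92.2% in shECM1 and 91.7%, 93.8% and 92.0% in shNC. The groups overlapped, and the highest share was in shNC replicate 2. There were 20.5, 20.3 and 17.0 EGR1 reads per EGR3 read in shECM1, against 15.9, 25.1 and 15.7 in shNC, so the groups overlapped here too.

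The ratios of EGR1 to NAB1 and to NAB2 reads separated the groups, as the EGR1 level did on its own. They restate that difference where the other gene differs less, and other genes were not tried as the divisor. There were 1.42, 1.49 and 1.69 EGR1 reads per NAB1 read in shECM1, against 2.21, 1.92 and 2.39 in shNC. There were 6.01, 5.70 and 4.55 EGR1 reads per NAB2 read in shECM1, against 8.10, 7.53 and 9.65 in shNC. In both ratios every shECM1 library lay below every shNC library, replicate 2 of the controls included. Per kilobase of exon, EGR1 over the sum of both NAB genes was 1.60, 1.63 and 1.64 in shECM1 and 2.38, 2.12 and 2.66 in shNC. NAB2 reads per NAB1 read were 0.237, 0.261 and 0.372 in shECM1 and 0.272, 0.256 and 0.248 in shNC, with overlap and with shECM1 replicate 3 the highest. These ratios rest on the same contrast as the choice of genes and were not tested.

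**Figure D3:**
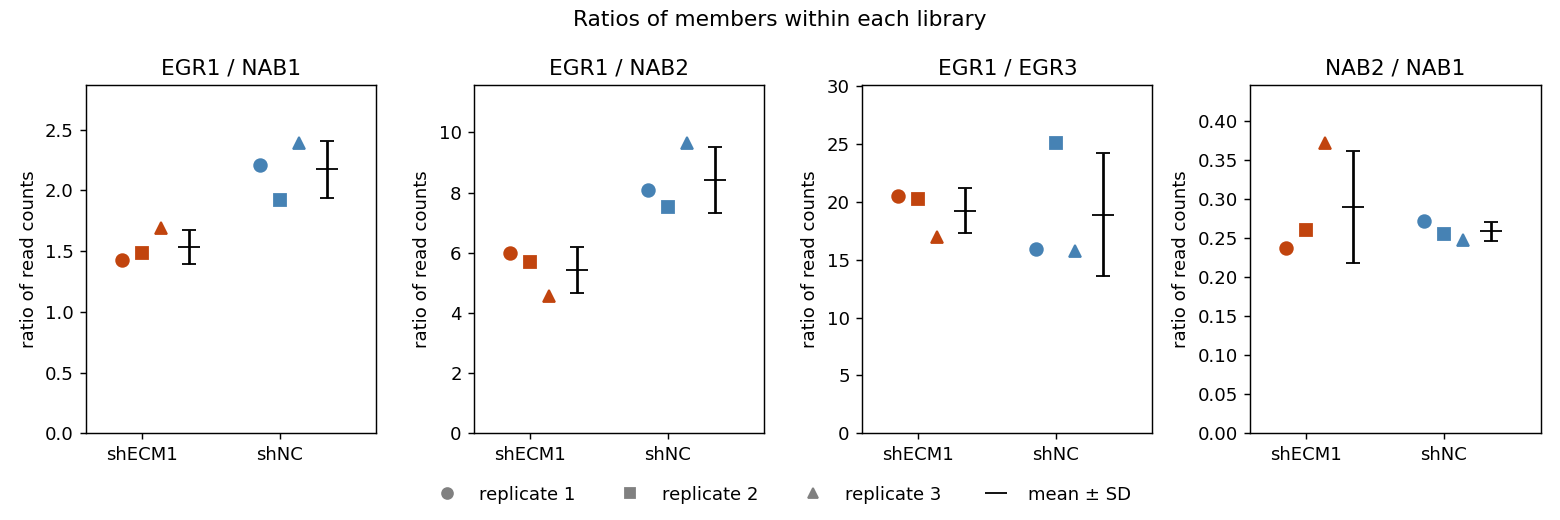
Ratios of read counts within each library (linear axes from 0) for EGR1 over NAB1, EGR1 over NAB2, EGR1 over EGR3 and NAB2 over NAB1, with shECM1 left of shNC, symbols for replicates and bars for the mean ± SD. The first 2 ratios separate the groups (1.42 to 1.69 against 1.92 to 2.39, and 4.55 to 6.01 against 7.53 to 9.65), and the other 2 overlap.

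Genes flanking the members were measured beside them. REEP2 and ETF1, on either side of EGR1, had log2 fold changes of -0.47 ± 0.31 and 0.27 ± 0.11 (SE). ETF1, a translation termination factor, was at 171.3 ± 6.69 CPM in shECM1 and 142.2 ± 14.4 CPM in shNC (SD, n = 3 each), on the opposite side to EGR1. BIN3, next to EGR3, was at -0.34 ± 0.14, ADO and NRBF2 beside EGR2 at 0.04 ± 0.18 and 0.14 ± 0.11, and FBXO41 and ALMS1 beside EGR4 at 0.09 ± 0.17 and 0.14 ± 0.12. NEMP2 beside NAB1 was at -0.12 ± 0.18, and NEMP1 beside NAB2 at -0.12 ± 0.14. LRP1, the receptor gene beyond NAB2, was at 94.6 ± 9.30 CPM in shECM1 and 189.8 ± 66.2 CPM in shNC (SD, n = 3 each). Its span overlaps that of STAT6, which lies on the opposite strand. None of these flanking genes was called by edgeR with all libraries, and DESeq2 called LRP1 alone (adjusted p = 0.000532). Without shNC replicate 2, edgeR called REEP2 (-0.73, adjusted p = 0.049), BIN3 (-0.44, adjusted p = 0.023) and LRP1 (-1.23, adjusted p = 0.000191) lower and ETF1 (0.35, adjusted p = 0.029) higher. Among the uncalled flanking genes, leaving that library out moved NEMP2 to -0.26, FBXO41 to 0.17, ALMS1 to 0.21 and ADO to -0.04. PEBP4, beyond EGR3, did not pass the count filter.

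The gene lists below were fixed with earlier results of these data known, so nothing is read from their counts of calls or medians. The ERK to SRF route, which switches EGR genes on, was taken as a list of 17 genes, all tested. None was called by edgeR or DESeq2 with all libraries; 5 were lower and 0 higher at an unadjusted p under 0.05, where 14.2% and 8.31% of all genes were. The median log2 fold change was -0.16, against 0.01 over all genes tested. MAP2K1, which encodes the ERK kinase MEK1, was at 137.7 ± 14.4 CPM in shECM1 and 179.2 ± 37.9 CPM in shNC (SD, n = 3 each), with 140.8 CPM in shNC replicate 2. ELK1, the ternary complex factor, was at 47.1 ± 1.56 CPM in shECM1 and 58.9 ± 9.89 CPM in shNC, and RPS6KA1, a kinase downstream of ERK, at 62.1 ± 2.60 and 77.4 ± 13.9 CPM in shECM1 and shNC. MRTFA, an SRF coactivator that answers to actin, was at 36.8 ± 1.12 CPM in shECM1 and 44.6 ± 2.51 CPM in shNC, and RPS6KA3 at 148.2 ± 23.3 and 154.3 ± 8.95. Their log2 fold changes lay between -0.38 (MAP2K1) and -0.06 (RPS6KA3). SRF itself, named after its values were seen, was at 28.4 ± 6.09 CPM in shECM1 and 26.9 ± 3.86 CPM in shNC (SD, n = 3 each). Without shNC replicate 2, edgeR called MAP2K1, MAP2K2, MAPK3, RPS6KA1 and ELK1 lower and none higher, where 14.1% and 9.73% of all genes were called, and RPS6KA3 moved to -0.09 and SRF to 0.19.

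Cofactors of EGR proteins, including the NuRD complex that NAB2 recruits, and the GC-box factors SP1, SP3 and WT1 made up another list of 17 genes. All 17 were tested and none was called by edgeR or DESeq2 with all libraries; 2 were lower and 1 higher at an unadjusted p under 0.05, close to or below the 14.2% and 8.31% of all genes. The median log2 fold change was -0.04. SP1, which binds GC boxes that often overlap EGR sites, was at 75.2 ± 4.05 CPM in shECM1 and 93.0 ± 9.11 CPM in shNC (-0.31 ± 0.11 SE), and the NuRD subunit gene GATAD2B at 20.6 ± 0.517 and 25.7 ± 2.50 CPM in shECM1 and shNC. The deacetylase gene HDAC2 went the other way, at 416.8 ± 35.4 CPM in shECM1 and 324.5 ± 40.2 CPM in shNC (0.36 ± 0.12 SE), as did RBBP4 at 155.3 ± 0.965 and 132.1 ± 23.3 CPM (0.23 ± 0.13). HDAC1 was at 350.7 ± 23.2 CPM in shECM1 and 359.7 ± 19.2 CPM in shNC. CHD4, the remodeller bound by NAB2 and named after its values were seen, was at 96.5 ± 2.68 CPM in shECM1 and 103.0 ± 2.60 CPM in shNC (-0.09 ± 0.10 SE). Without shNC replicate 2, edgeR called SP1 and GATAD2A lower and HDAC2 and RBBP4 higher, where 14.1% and 9.73% of all genes were called, and RBBP4 moved to 0.39 ± 0.11 (SE).

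Described EGR target genes were a list of 29, other than NAB2, of which 26 were tested. With all libraries edgeR called 0 of them, with 15 lower and 1 higher at an unadjusted p under 0.05 (14.2% and 8.31% of all genes), while DESeq2 called 6 lower and 0 higher, beside 5.13% and 1.04% of all genes. The median log2 fold change was -0.45, and 21 of 26 were negative. The 6 were TGFB1, PDGFA, PDGFB, IGF2, ARC and NDRG1. PDGFA, a growth factor subunit, fell by DESeq2 (adjusted p = 0.000532), at 40.2 ± 2.23 CPM in shECM1 against 85.7 ± 33.6 CPM in shNC (SD, n = 3 each), and PDGFB likewise (DESeq2 adjusted p = 0.00919), at 12.1 ± 0.795 against 22.7 ± 7.79 CPM. The synaptic gene ARC, an EGR target in rodent neurons, was low in both groups and fell by DESeq2 (adjusted p = 0.0013), at 0.723 ± 0.143 CPM in shECM1 against 3.48 ± 1.55 CPM in shNC. NDRG1, abundant here and described as an Egr2 target in mouse T cells, fell by DESeq2 (adjusted p = 0.0104), at 405.1 ± 35.5 CPM in shECM1 against 682.7 ± 251.1 CPM in shNC, with 449.0 CPM in shNC replicate 2. CDKN1A, the cell cycle inhibitor p21, was at 3.57 ± 1.61 CPM in shECM1 and 12.8 ± 7.59 CPM in shNC and was not called by DESeq2 (adjusted p = 0.082), but edgeR called it lower without shNC replicate 2 (-2.28, adjusted p = 0.000341), a control at 4.38 CPM. VEGFA was at 261.7 ± 19.2 CPM in shECM1 and 318.2 ± 19.6 CPM in shNC (-0.28 ± 0.10 SE). Without shNC replicate 2, edgeR called 14 lower and 1 higher, beside 14.1% and 9.73% of all genes.

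Other immediate-early genes, which share the EGR genes' rapid induction, were a list of 27, of which 26 were tested. edgeR called 0 with all libraries, with 16 lower and 2 higher at an unadjusted p under 0.05 (14.2% and 8.31% of all genes), and DESeq2 called 12 lower and 0 higher (5.13% and 1.04% of all genes). The median log2 fold change was -0.69, with 23 of 26 negative, and EGR1 (-0.84), EGR2 (-0.71) and EGR3 (-0.97) lay near it. Both this list and the EGR genes were chosen with earlier results known, so this nearness supports nothing further. NR4A1, an orphan nuclear receptor, fell by DESeq2 (adjusted p = 0.0211), at 8.94 ± 1.59 CPM in shECM1 against 30.5 ± 16.1 CPM in shNC (SD, n = 3 each). ZFP36, which destabilises AU-rich mRNAs, fell by DESeq2 (adjusted p = 0.0437), at 39.2 ± 4.55 against 93.9 ± 45.5 CPM, and the AP-1 subunit genes FOS and FOSL1 fell too (DESeq2 adjusted p = 0.00142 and 0.00177), with log2 fold changes of -1.06 and -0.88. IER3, a stress-response gene and with MYC the most abundant of the list, fell by DESeq2 (adjusted p = 0.00924), at 335.3 ± 23.8 CPM in shECM1 against 561.6 ± 189.7 CPM in shNC, with 355.9 CPM in shNC replicate 2. MYC was at 538.2 ± 116.2 CPM in shECM1 and 332.6 ± 145.9 CPM in shNC, uncalled by DESeq2 (adjusted p = 0.302), with a log2 fold change of 0.69 with all libraries and 1.12 without shNC replicate 2. Without that library, edgeR called 18 lower and 2 higher, MYC and the matrix signalling gene CCN1, where 14.1% and 9.73% of all genes were called. CCN1, itself a target of SRF, was low, at 1.30 ± 0.275 CPM in shECM1 and 0.528 ± 0.110 CPM in shNC.

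**Figure D4:**
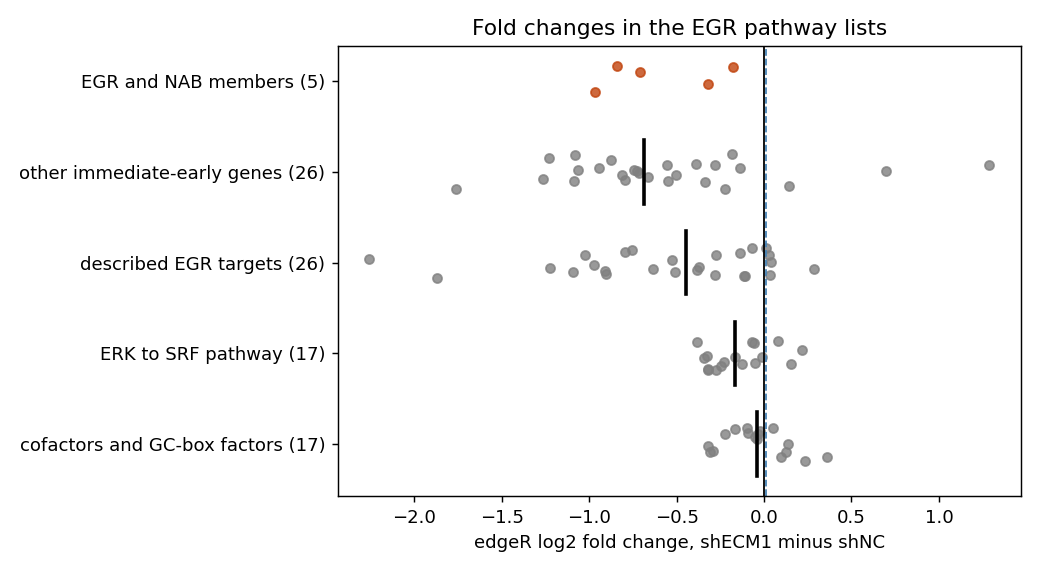
edgeR log2 fold changes (shECM1 minus shNC) of the tested genes in each list, 1 point per gene, with the EGR and NAB members on top, a black bar at each list's median and a dashed line at the median of all genes tested (0.01). The medians are -0.69 for other immediate-early genes, -0.45 for described EGR targets, -0.16 for the ERK to SRF pathway and -0.04 for cofactors and GC-box factors.

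Markers of other cell types were counted because some of them moved with the same libraries. Of 10 fibroblast markers 5 were tested and 5 were negative, where 48.6% of all genes tested were. The summed level of the list was 116.4 to 124.0 CPM in shECM1 and 167.1 to 308.7 CPM in shNC. DESeq2 called COL1A1, COL6A1 and COL6A2 lower (adjusted p = 0.000833, 0.000128 and 0.000135), where it called 5.13% of all genes lower. COL6A1 was at 83.7 ± 2.77 CPM in shECM1 and 168.3 ± 49.3 CPM in shNC (SD, n = 3 each), while PDGFRA and COL3A1 had 0 reads in every library. Of 10 immune markers 5 were tested and 5 were negative, with a summed level of 54.1 to 84.8 CPM in shECM1 and 83.8 to 203.1 CPM in shNC, while PTPRC, CD3E and MS4A1 had 0 reads in every library. CD68 averaged 58.6 CPM in shECM1 and 121.1 CPM in shNC, LYZ 5.57 and 10.9 CPM, and ITGAX 2.37 and 5.22 CPM, and DESeq2 called ITGAX lower (adjusted p = 0.0299). Of 7 endothelial markers 2 were tested, with a summed level of 8.04 to 9.22 CPM in shECM1 and 9.73 to 12.2 CPM in shNC, and KDR and EMCN had 0 reads in every library. edgeR run without shNC replicate 2 called 3 fibroblast, 3 immune and 0 endothelial markers lower and 0 higher, where 14.1% and 9.73% of all genes were called. By the same fit 3 of the 9 tested colon epithelial markers were called lower and 0 higher. The part of these marker genes in the EGR and NAB values was not tested.

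The genes whose pattern over the 6 libraries was most like that of EGR1 were found among 8950 others with a mean of at least 10 CPM. Likeness was the root mean square difference of log2(CPM + 0.5), centred per gene, and it is a description of these libraries. The closest were ITGA7, an integrin subunit that binds laminin, at 0.054, the kinase gene CDC42BPG at 0.059, the transporter gene SLC16A5 at 0.066, the Rac activator gene PREX1 at 0.068 and the scaffold gene MPP2 at 0.068, where the median over all candidates was 0.474. Each of the 5 was low in all shECM1 libraries, high in shNC replicates 1 and 3 and between them in shNC replicate 2, and ITGA7 was at 38.8, 43.8 and 37.5 CPM in shECM1 against 78.3, 53.2 and 86.5 CPM in shNC. NAB1 ranked 1050 and NAB2 2070 in likeness to EGR1.

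NAB2 followed another pattern, lowest in shECM1 replicate 1 and about as high in shECM1 replicate 3 as in shNC replicates 1 and 3. Its closest genes were AP1B1, a clathrin adaptor subunit (0.026), MNT, a MAX-binding repressor (0.027), ST14, the membrane protease matriptase (0.028), FBXO44 (0.028) and ATXN1 (0.029), where the median over all candidates was 0.232. ST14 was at 228.8, 247.3 and 285.9 CPM in shECM1 and 302.4, 260.4 and 308.7 CPM in shNC. By the same measure EGR1 ranked 7797 of 8950 in likeness to NAB2 and NAB1 ranked 3728. The difference between EGR1 and NAB2 was 0.359 in both rankings, below the EGR1 median of 0.474 and above the NAB2 median. The measure counts the size of a change as well as its shape, so these ranks do not compare shape alone.

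**Figure D5:**
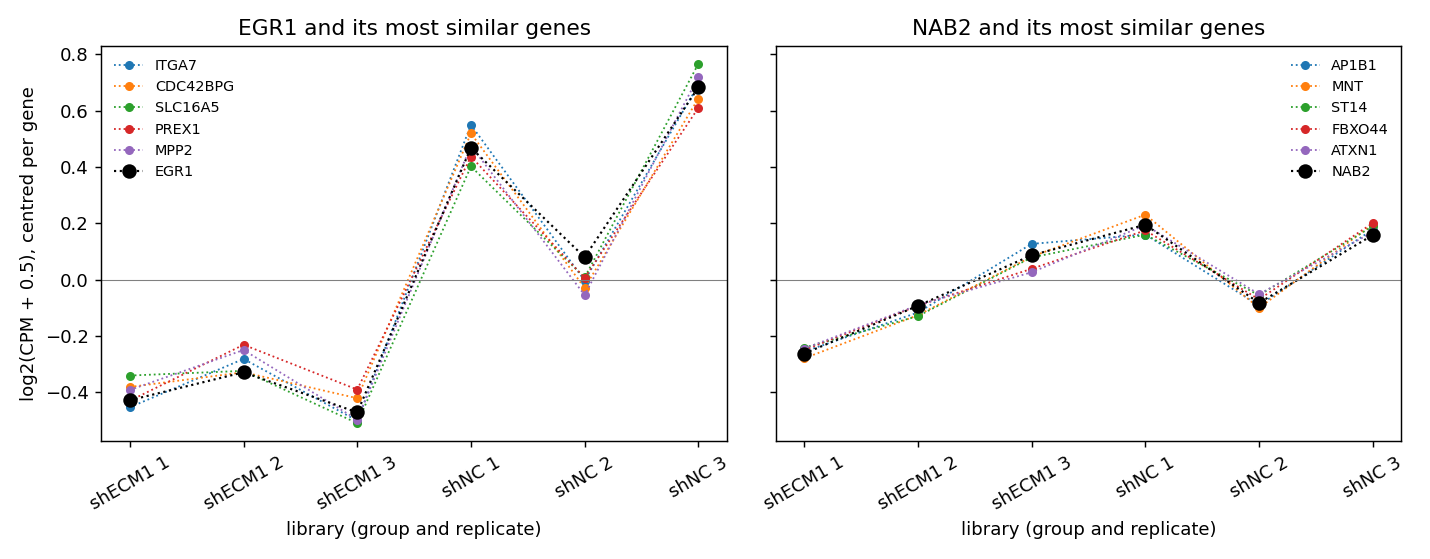
log2(CPM + 0.5), centred per gene, in each library for EGR1 (left, black) and NAB2 (right, black) with their 5 most similar genes, shECM1 libraries left of shNC; dotted lines join the points of 1 gene and imply no order of libraries. EGR1 and its neighbours are lowest in the shECM1 libraries and highest in shNC replicate 3, while NAB2 and its neighbours overlap between the groups.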

How the data were processed

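The authors deposited 1 table of raw counts per gene for 6 libraries, with 20476 gene rows. The submitters' processing notes name the builds GRCh38 and hg38 and the tools STAR, featureCounts, fastp, Seurat and DESeq2; the sources used here give no roles, versions or strand setting. They leave unsaid whether each column is bulk RNA or pooled single cells.

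Members and lists were chosen with earlier results of these data known. Named list genes were the 2 of highest mean level and the 4 of smallest p per list; others were chosen after their values were seen.

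The test was that of edgeR 4.0.16 in R 4.3.3 (filterByExpr, TMM, quasi-likelihood test, no covariate, Benjamini-Hochberg over 12576 genes, threshold 0.05). The SE is the log2 fold change over the root of the F statistic. TMM is trimmed mean of M values. Alternatives were RLE factors, library size alone, no filter, 50 counts in 3 libraries, DESeq2 1.42.0, limma-voom 3.58.1, the replicate number as a block and leaving out each library. DESeq2 without shNC replicate 2 was added after seeing the data. The procedure was tested on simulated counts with the same spread setting for every gene and no library set apart. These data differ in both respects, so that test does not cover the effect of shNC replicate 2 on the calls. Exon lengths and locations are from GENCODE release 29 (GRCh38). Values of some list and flanking genes are not reported here.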

Additional observations from a re-analysis of the deposited data

How the results depend on the processing

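The direction of the 5 tested members held in all 14 alternatives. Over the alternatives that kept all libraries, the log2 fold change ran from -0.84 to -0.81 for EGR1, -0.71 to -0.68 for EGR2, -0.97 to -0.86 for EGR3, -0.32 to -0.29 for NAB1 and -0.18 to -0.15 for NAB2. Leaving out 1 library gave -0.98 to -0.70 for EGR1, -0.83 to -0.57 for EGR2, -1.25 to -0.70 for EGR3, -0.38 to -0.22 for NAB1 and -0.27 to -0.091 for NAB2; NAB2 was nearest 0 without shECM1 replicate 1 and farthest without shECM1 replicate 3.

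The number of genes called was 0 with edgeR, 505 with no count filter, 717 with DESeq2 and 2681 with DESeq2 without shNC replicate 2. Leaving out 1 library gave 0 to 3037 with edgeR, the highest without shNC replicate 2. With no count filter 7 described targets and 12 other immediate-early genes were called, and with DESeq2 6 and 12. DESeq2 without shNC replicate 2 called 5 upstream genes, 3 cofactors, 15 targets and 18 immediate-early genes. Leaving out 1 library, edgeR called 0 to 5 upstream genes, 0 to 4 cofactors, 0 to 15 targets and 0 to 20 immediate-early genes, each highest without shNC replicate 2. The cause was not tested.

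With the replicate number as a block, edgeR called 0 genes, and the log2 fold changes were -0.82 for EGR1, -0.69 for EGR2, -0.88 for EGR3, -0.32 for NAB1 and -0.18 for NAB2. Deviations of same-numbered libraries from their group means correlated at -0.088, -0.051 and -0.20 for replicates 1, 2 and 3. Of the 6 libraries, 0 correlated best with their own number. With 3 libraries per group these correlations cannot decide whether same-numbered libraries were made together, and the main fit assumed no pairing. Read depth limits EGR4, at 3 to 12 reads per library, and EGR2.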
